A study of Mus musculus with 2 samples.

Results

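Cardiac pericytes are described here as the 443 cells, of 13502 kept over 2 single cell libraries of the postnatal mouse heart, that met a rule on 10 genes. A cell was a pericyte when it held no unique molecular identifier (UMI, a tag that counts each captured mRNA molecule once) of the endothelial gene Pecam1 or of the leukocyte gene Ptprc, at least 1 UMI of 3 or more of Kcnj8, Colec11, Vtn, Higd1b and Steap4, and more of these 5 genes than of the 5 smooth muscle genes Myh11, Mustn1, Actg2, Olfr558 and Nrip2. The P1 library gave 129 pericytes of 4991 kept cells and the P7 library 314 of 8511. Kept cells had 200 to 8000 detected genes and no more than 20% mitochondrial UMIs. Because the rule reads the transcripts themselves, all levels of these 10 genes, and all comparisons of pericytes with other cells, are descriptions and not tests.

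The study profiled live cells of whole hearts at postnatal day 1 (P1) and day 7 (P7), and this compares the first days after birth with the end of the first week. Each library came from 3 hearts of one litter, pooled before digestion in collagenase II for 20 min at P1 and 45 min at P7, followed by red cell lysis and sorting of 7-AAD negative cells. No strain, allele or treatment is given in the labels of these mice. There was 1 library per age, so no test between the ages was possible, and every interval below covers counting error only. Pericytes at P1 held 1115 UMIs of the X inactivation RNA Xist and 0 UMIs of 4 Y-linked genes, whereas those at P7 held 0 and 518. Age, sex, litter, digestion time and library preparation therefore differed together and cannot be told apart.

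Pericytes are mural cells that lie within the basement membrane of capillaries, in contact with the endothelium. Endothelial PDGF-B recruits them through the receptor PDGFRB, and they are known to influence capillary tone, vessel stability and the barrier of the vessel wall. Vascular smooth muscle cells are their closest relatives, surround arteries and veins, and carry a much denser contractile apparatus. In the heart, pericytes express the vascular ATP-sensitive potassium channel, whose pore is encoded by Kcnj8 and whose regulatory subunit by Abcc9.

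Pericytes made up 2.58% of kept cells at P1 (exact Clopper-Pearson interval 2.16 to 3.06) and 3.69% at P7 (3.30 to 4.11). Among cells without Pecam1 and Ptprc the shares were 4.93% and 7.77%. Smooth muscle cells, defined by the mirror image of the rule, numbered 131 at P1 and 349 at P7, which gave 98.5 pericytes per 100 smooth muscle cells at P1 and 90.0 at P7. Age and digestion time cannot be told apart in these shares. The summed depth was 1260929 UMIs at P1 and 2681583 at P7, and the median pericyte held 8668 UMIs of 3148 genes at P1 and 7706 UMIs of 2920 genes at P7. Mitochondrial UMIs had a median of 4.13% and 3.73%. None of the 443 cells carried one of the 18 barcodes that occurred in both libraries.

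The 5 pericyte genes were detected together in 59 of 129 pericytes at P1 and in 231 of 314 at P7. Kcnj8 (chromosome 6, 142564837 to 142571614, minus strand, GRCm38) stood at 1419 CPM at P1 and 1540 at P7, where CPM is the UMIs of a gene summed over the cells of a class in 1 library, per 1000000 UMIs of that class. Colec11, a secreted lectin of the complement system, stood at 1410 and 1590 CPM, and Higd1b, a small protein of the HIG1 family, at 753 and 896 CPM. Vtn, which encodes the adhesive glycoprotein vitronectin, had 310 CPM at P1 and 538 at P7, and Steap4, a metalloreductase, had 283 and 455. All 5 were somewhat higher at P7, with log2 ratios of P1 over P7 between -0.79 for Vtn and -0.12 for Kcnj8. Over the alternatives described at the end, the ratio rose as far as 0.19 for Kcnj8, 0.12 for Colec11 and 0.025 for Higd1b. Those of Vtn and Steap4 kept their direction. Thinned to 2000 UMIs per cell, 81.5% of P1 and 89.6% of P7 pericytes kept a UMI of Kcnj8, and 39.5% and 59.1% one of Vtn.

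The edges of the rule were less uniform. The 31 P1 cells with exactly 3 pericyte genes had 4141 CPM of Rgs5 and 384 of Abcc9, while the 76 cells with 2 genes, just outside the rule, had 472 and 71.7 CPM. At P7 the 25 cells with exactly 3 genes had 2725 CPM of Rgs5 and 190 of Abcc9, and the 97 cells with 2 had 224 and 28.8 CPM. Those 25 P7 cells held 6363 CPM of Dcn, the fibroblast proteoglycan decorin, against 801 CPM in the 231 cells with all 5 genes, so that the members nearest the limit at P7 held the higher level of this fibroblast transcript. On the side of smooth muscle, members with 1 more pericyte than smooth muscle gene had 3112 CPM of Acta2 at P1 and 4780 at P7, and cells with equal numbers, just outside the rule, had 5724 and 8252.

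Summed over the members, genes that the rule did not use gave the label the same reading in both libraries. Of 26 other mural genes on a list, 23 were 2-fold or more higher in pericytes than in all other kept cells at both ages, against 5.21% of the 14770 genes measured there (12.4% were as much lower). Their summed level was 17287 CPM in pericytes at P1 and 21317 at P7, and 1625 and 2169 CPM in the other cells. Abcc9 (chromosome 6, 142587862 to 142702315, minus strand), which lies beside Kcnj8 and was among the named markers of the label, had 615 and 693 CPM in pericytes and 19.6 and 16.5 in other cells. Rgs5, a regulator of G protein signalling, was the most abundant gene of the list, at 5436 CPM at P1 and 8535 at P7. Pdgfrb was at 1000 and 1052 CPM, against 46.2 and 43.2 in other cells. The 3 genes under 2-fold in at least 1 library were Anpep, Cd248 and Pth1r. These sums do not hold for every member. For example, a P7 member of 20197 UMIs had no UMI of Rgs5, Abcc9 or Pdgfrb but 118 of the fibroblast gene Dcn. Likewise, a P1 member of 4867 UMIs had none of the same genes and 30 UMIs of Dcn.

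**Figure D1:**
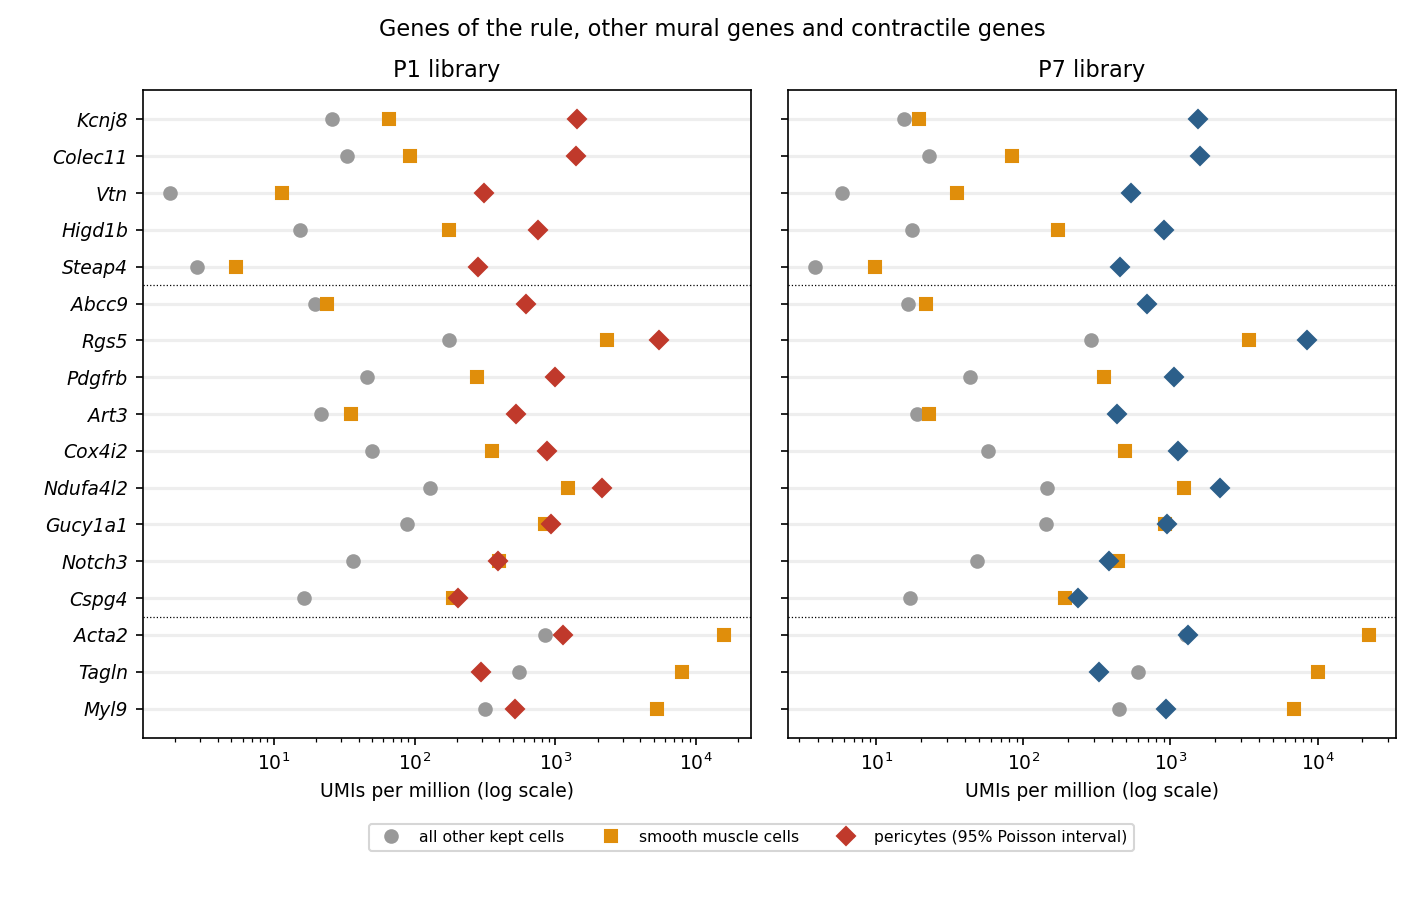
Levels of 17 genes in pericytes (diamonds, with 95% Poisson intervals that are mostly narrower than the symbol), smooth muscle cells (squares) and all other kept cells (circles), in CPM on a log axis, for the P1 library on the left and the P7 library on the right. The 5 genes of the rule stand above the upper dotted line, 9 other mural genes between the lines and 3 contractile genes below; Abcc9 sits at 615 and 693 in pericytes and between 16.5 and 24.0 in the other groups, while Acta2, Tagln and Myl9 are highest in smooth muscle cells.

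The leading genes of pericytes outside the rule included some that are better known from other tissues. Phox2a, a homeobox factor of autonomic neurons, had the largest ratio over other cells when ranked by the smaller of the 2 libraries, with 51.6 CPM in pericytes against 0.85 in other cells at P1 and 45.5 against 0.51 at P7. It was detected in 29 of 129 and 79 of 314 pericytes. Slitrk6, a transmembrane protein of neural tissue, was at 60.3 and 88.4 CPM, with log2 ratios over other cells of 5.62 at P1 and 5.79 at P7. Cpa1, which encodes the pancreatic enzyme carboxypeptidase A1, had log2 ratios over other cells of 5.14 at P1 and 5.21 at P7 and was detected in 63.6% and 40.8% of pericytes. Fabp7, the brain-type fatty acid-binding protein, stood at 373 and 202 CPM. The remaining genes of this ranking were Scn3a, a sodium channel, Mt3, a metallothionein, 4833422C13Rik, Cpm, a membrane carboxypeptidase, Art3, an ADP-ribosyltransferase family member, Serpini1, which encodes neuroserpin, P2ry14, a receptor for UDP-sugars, and Rgs4.

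Compared with smooth muscle cells, 513 of 9518 genes measured (5.39%) were 2-fold or more higher in pericytes in both libraries and 530 (5.57%) lower. Abcc9 differed from smooth muscle by 4.66 on the log2 scale at P1 and 4.99 at P7, and Art3 by 3.89 and 4.26. Agtr1a, the receptor for angiotensin II, had 50.8 CPM in P1 pericytes and 1.20 in P1 smooth muscle cells, and 25.4 and 2.01 CPM at P7. Sele, the leukocyte adhesion molecule E-selectin that is usually ascribed to activated endothelium, had 89.6 CPM in pericytes at P1 and 58.2 at P7 but 0.60 and 2.51 CPM in smooth muscle cells. After thinning, 12.6% of P1 and 8.77% of P7 pericytes held a Sele UMI, against 0.550% and 0.275% of endothelial cells, and none of 27 P1 and 138 P7 lymphocytes (counts of 0 that allow up to 11.1% and 2.17%). Cpa1, with 20 UMIs in P1 and 2 in P7 smooth muscle cells, had log2 ratios over them of 5.55 (95% counting interval 4.94 to 6.30) and 8.27 (6.73 to 11.64). Phox2a, with 1 and 3 UMIs there, had 5.85 (3.89 to 11.75) and 5.70 (4.33 to 8.21). Cpm, Tmem108, Pla2g7, Gm14964 and Klk8 were the other genes with the largest ratios in this direction.

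Some mural genes were at similar levels in both classes, whereas others were higher in pericytes. Notch3, the receptor that maintains arterial smooth muscle, had 393 and 381 CPM in pericytes and 401 and 439 CPM in smooth muscle cells. Cspg4, which encodes the pericyte surface antigen NG2, had 203 and 237 CPM against 187 and 191. Gucy1a1 and Gucy1b1, the subunits of the nitric oxide receptor guanylyl cyclase, were at 929 and 523 CPM in P1 pericytes and at 849 and 316 CPM in P1 smooth muscle, and at 940 and 507 against 925 and 382 CPM at P7. Pdgfrb was higher in pericytes, at 1000 and 1052 against 279 and 354 CPM, and so was Rgs5, at 5436 and 8535 against 2338 and 3435. Of the 26 mural genes, 10 were 2-fold or more higher in pericytes than in smooth muscle cells in both libraries, Pdgfrb and Rgs5 among them, and none was lower, beside 5.39% and 5.57% of all genes measured.

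Contractile genes lay on the opposite side. Of 20 on the list, 15 were 2-fold or more lower in pericytes in both libraries, beside 5.57% of all genes measured. Smooth muscle genes were used to choose both classes, so this count is a description and not a test. The summed level of the list was 7530 and 8976 CPM in pericytes against 45167 and 61917 CPM in smooth muscle. Acta2, smooth muscle actin, stood at 1140 CPM in P1 pericytes and 15667 in P1 smooth muscle cells, and at 1319 and 22315 CPM at P7. Within pericytes its level was highest in the members nearest to smooth muscle. The 29 P1 members with 2 or more smooth muscle genes had 2477 CPM of Acta2 and the 55 with none had 134, and at P7 the 83 and 115 such members had 2674 and 611 CPM. The log2 ratio of P1 over P7 was -0.21 over all pericytes and -2.18 in members with no smooth muscle gene. Tagln, the actin-binding protein transgelin, had log2 ratios of -4.74 and -4.94. Some genes of the smooth muscle class were hardly detected in pericytes, where Cnn1 (calponin) had 1 UMI at P1 and 11 at P7, and Susd5 had 0 in both, which allows up to 2.38 CPM at P1 and 1.12 at P7 (3 counts in the summed pericytes of a library). Des (desmin) was an exception, at 233 CPM in pericytes and 187 in smooth muscle cells at P1, and at 280 and 391 CPM at P7.

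**Figure D2:**
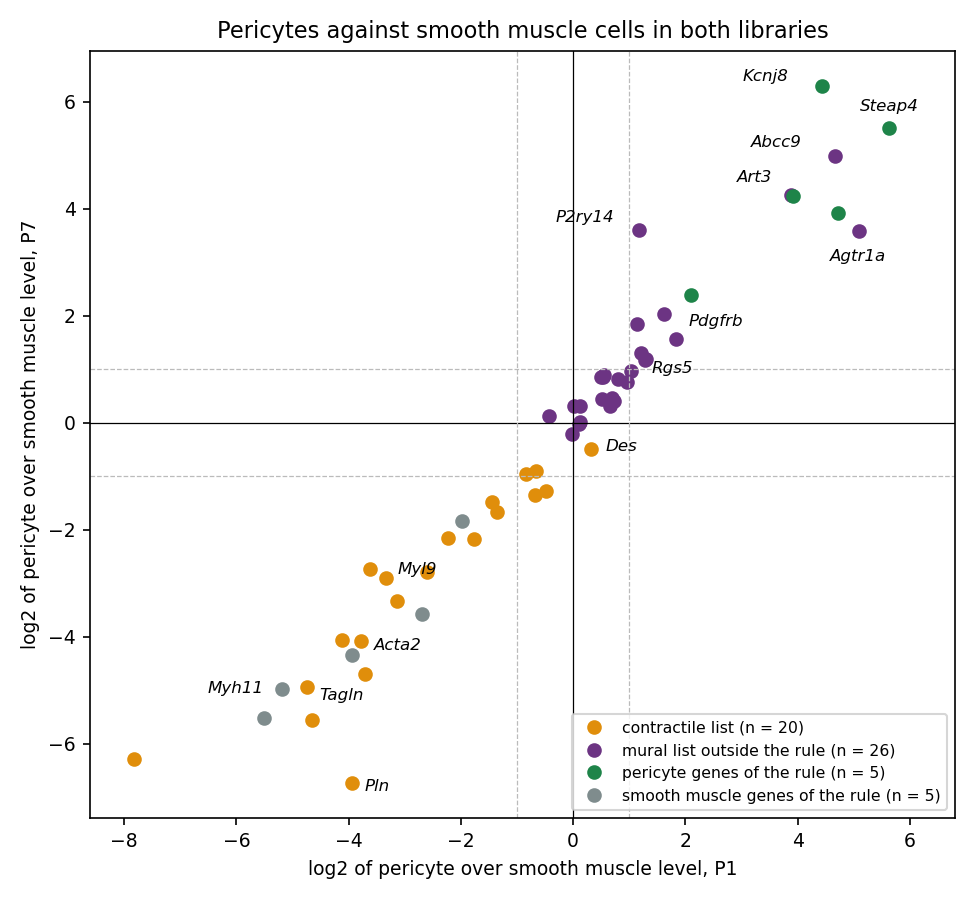
Each point is a gene, placed by its log2 ratio of pericyte over smooth muscle level at P1 (horizontal) and at P7 (vertical); dashed lines mark 2-fold. The mural genes outside the rule lie around or above 0 in both libraries, up to Abcc9 at 4.66 and 4.99, and the contractile genes lie below 0 apart from Des at P1; the 10 genes of the rule are placed by construction.

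Among respiratory chain genes with tissue-specific paralogues, pericytes differed from all other cells in some members. The sum over the list was closer to that of smooth muscle cells. It was 7376 and 8124 CPM in pericytes, 6612 and 7842 in smooth muscle and 3401 and 3538 in other cells. Ndufa4l2, the paralogue of the complex IV subunit Ndufa4, was at 2140 CPM at P1 and 2174 at P7, against 129 and 144 CPM in other cells and 1232 and 1231 in smooth muscle. Ndufa4 itself was lower in pericytes, at 147 and 91.4 CPM against 488 and 530 in other cells and 485 and 575 in smooth muscle. Cox4i2, the isoform of cytochrome c oxidase subunit 4 found in lung and vessels, had 875 and 1125 CPM in pericytes, 49.7 and 57.4 in other cells and 355 and 492 in smooth muscle. Its partner Cox4i1 was within 2-fold of other cells (1504 and 1564 against 1243 and 1187 CPM). The rule gene Higd1b stood beside a Higd1a at 90.4 and 106 CPM, which had 148 and 159 CPM in other cells. Over the 10 measured genes of this list no member differed 2-fold between P1 and P7, beside 6.19% of all genes.

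Between the ages, 274 of 10126 genes with at least 20 UMIs in pericytes (2.71%) were 2-fold or more higher at P1 and 353 (3.49%) were 2-fold or more higher at P7, in all 6.19%. Over all 10126 genes the log2 ratio of P1 over P7 had its median at -0.02. In smooth muscle cells the shares were 4.5% and 3.07%, and in all other kept cells 8.93% and 4.11%. Because a sum over few cells can rest on 1 of them, each ratio was also taken without the UMIs of the top pericyte. In each library this was the pericyte that held most UMIs of the gene, and the total UMIs used as divisor stayed unchanged. After this step 229 of the 274 genes higher at P1 were still past 2-fold in that direction. A single cell is a larger part of 129 than of 314, so that this step lowers the P1 sums more, and in all 238 genes were then past 2-fold towards P1 and 531 towards P7. The mural genes outside the rule differed little, with 1 of 26 past 2-fold towards each age and a median log2 ratio of -0.13. The gene at P1 was Agtr1a (log2 ratio 1.00, 95% interval 0.49 to 1.52), which was past 2-fold in 15 of the 20 alternatives and ranged from 0.25 to 1.15. Rgs5 had a log2 ratio of -0.65 (-0.69 to -0.61), and its ratio in smooth muscle cells was -0.55. Contractile genes had 2 of 19 measured past 2-fold towards P1 (Pln and Lmod1) and 2 towards P7 (Pcp4l1 and Synpo2), with a median of -0.21. The myosin light chain Myl9 had 520 and 928 CPM and the tropomyosin Tpm2 580 and 1063.

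**Figure D3:**
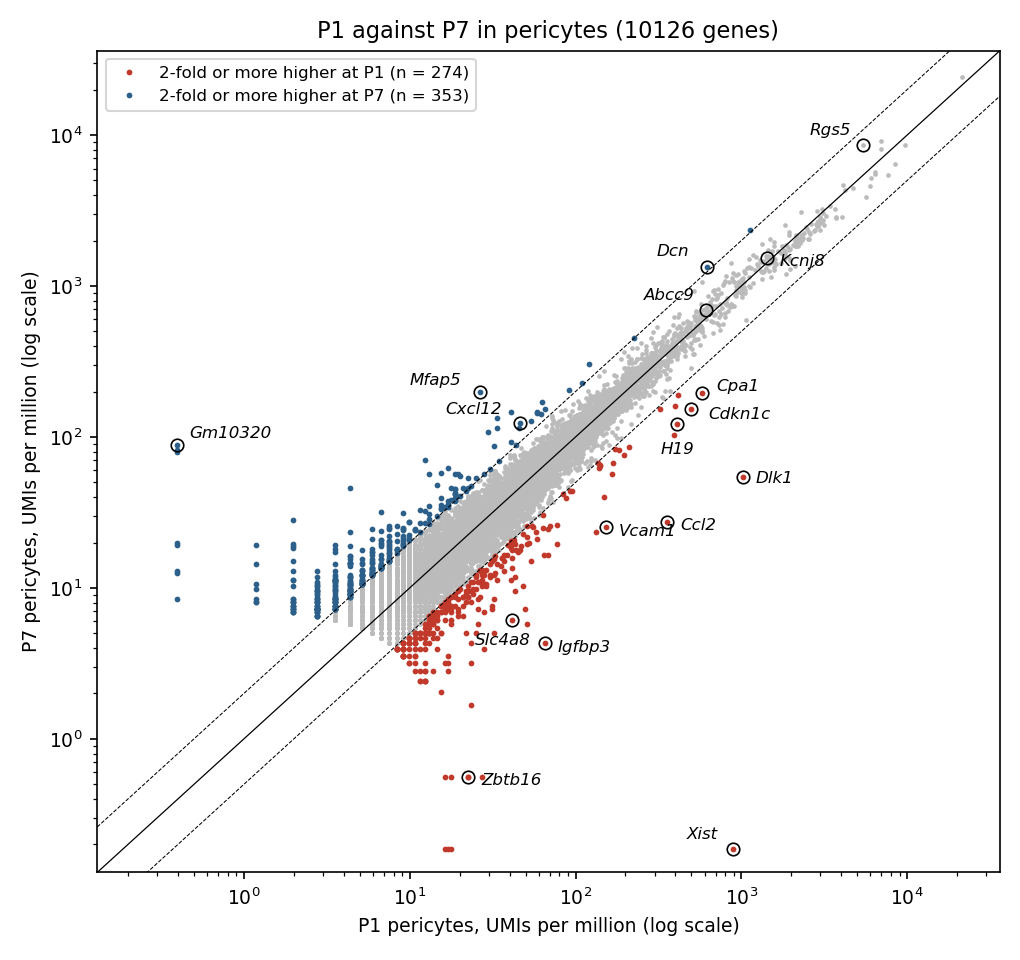
Level of each of 10126 genes in P1 pericytes (horizontal) and P7 pericytes (vertical), in CPM with 0.5 counts added, on log axes. The solid line marks equal levels and the dashed lines 2-fold; Dlk1 lies furthest from the line among genes over 1000 CPM at P1, while Kcnj8, Abcc9 and Rgs5 lie between the dashed lines.

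Dlk1 (chromosome 12, 109452823 to 109463336, plus strand), an imprinted gene that encodes a transmembrane protein related to Notch ligands, had the largest ratio towards P1, after Xist, among genes with at least 50 UMIs in pericytes. Its level was 1018 CPM at P1 (963 to 1076) against 54.4 at P7 (46.0 to 64.0), which is 4.22 (3.98 to 4.48) as a log2 ratio. The difference was not confined to a few cells. Dlk1 was detected in 93 of 129 pericytes at P1 and 47 of 314 at P7, and after thinning in 50.4% and 6.49%, compared with 7.41% of P1 lymphocytes and none of the 138 P7 lymphocytes (up to 2.17% allowed). The median P1 pericyte had 454 CPM, the highest 8484, and the 5 cells with most UMIs held 37.5% of the total. Without the top cell of each library the log2 ratio was 4.24, and over 20 alternatives it lay between 3.33 and 4.55. The same gene had a ratio of 4.49 in smooth muscle cells, from 314 to 13.8 CPM, and of 3.47 in all other cells, and the difference was thus found in all 3 classes.

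Dlk1 belonged to a list of insulin-like growth factor and imprinted growth genes, of which 27 members were measured. Of these 27, 12 were 2-fold or more higher at P1 and none at P7, beside 2.71% and 3.49% of all genes. The median log2 ratio of the list was 0.62, beside -0.02 over all genes. The count towards P1 was 7 in members thinned to 2000 UMIs and 8 in members with at least 4 pericyte genes or with no smooth muscle gene. The list counted 16 of 26 past 2-fold towards P1 in smooth muscle cells, with a median of 1.37, beside 4.5% of all genes. In all other cells it counted 14 of 33, with a median of 0.71, beside 8.93% of all genes. H19, an imprinted long non-coding RNA, had 412 and 121 CPM, and its ratio was 1.77 (1.57 to 1.97) in pericytes, 4.15 in smooth muscle cells and 1.89 in other cells. Cdkn1c, the cyclin-dependent kinase inhibitor p57, had 499 and 154 CPM, and Mest had 395 and 160. Plagl1, a zinc finger factor of the same imprinted network, had 68.2 and 16.4 CPM, a ratio of 2.05 (1.52 to 2.61). Igfbp3, a binding protein of insulin-like growth factors, had 82 UMIs at P1 and 11 at P7, but 34 of the 82 came from 1 cell (log2 ratio 3.93, and 3.60 without the top cells). Meg3 and Gnas, abundant imprinted transcripts, differed less, with log2 ratios of 0.63 and 0.56.

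**Figure D4:**
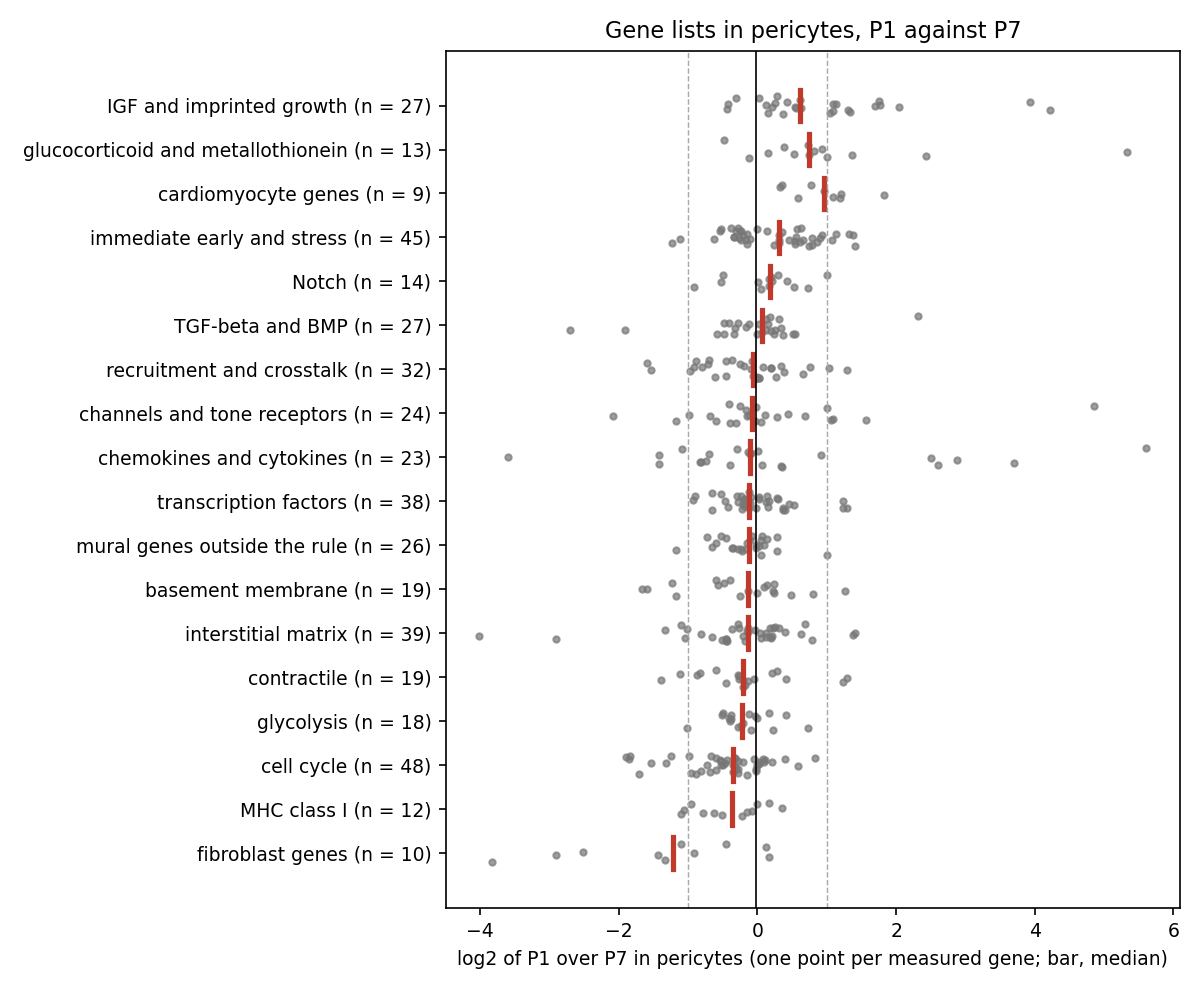
Log2 ratio of P1 over P7 in pericytes for the measured genes of 18 lists, one point per gene, with the median of each list as a red bar; the black line is the median of all 10126 genes and the dashed lines mark 2-fold. The insulin-like growth factor and imprinted list has its median at 0.62 and no gene beyond 2-fold towards P7, most lists straddle 0, and the fibroblast genes have a median of -1.23.

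Several genes with a higher level in pericytes than in other cells were also higher at P1. Cpa1 (chromosome 6, 30639218 to 30645363, plus strand) had 575 CPM at P1 and 194 at P7, with a log2 ratio of 1.57, and after thinning 45.4% of P1 and 22.4% of P7 pericytes held a UMI. Its ratio was 0.91 when pericytes with 2 or more of 10 mitotic genes were left out, the lowest of the alternatives. Slc4a8, a sodium bicarbonate transporter, had 41.2 and 5.97 CPM and was detected in 36 of 129 and 15 of 314 cells, with no cell above 3 UMIs. Its ratio was 2.76 (1.96 to 3.70) in pericytes and 1.73 and 0.99 in smooth muscle and other cells. Pla2g7, which inactivates platelet-activating factor, had 76.9 and 19.4 CPM. Mrap, the accessory protein of the melanocortin 2 receptor, had 47.6 and 10.1 CPM, and its ratio of 2.23 was close to the 1.91 of smooth muscle and the 2.28 of other cells.

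Among channels and receptors of vascular tone, 5 of 24 measured genes were 2-fold or more higher at P1 and 2 at P7. The shares of all genes were 2.71% and 3.49%, and the list had a median log2 ratio of -0.08. Npr3, the clearance receptor of natriuretic peptides, had 20 UMIs in 16 of 129 pericytes at P1 and a single UMI at P7 (log2 ratio 4.86, interval 2.77 to 10.78). Kcna5, a voltage-gated potassium channel, had 33.3 and 11.2 CPM. Avpr1a, the vasopressin receptor, had 3 UMIs at P1 and 31 at P7 (log2 ratio -2.08, -4.63 to -0.60). The endothelin receptor Ednra differed little, with 138 and 153 CPM.

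Genes that respond to glucocorticoids, together with metallothioneins, formed another list on the side of P1. Of 13 measured, 4 were past 2-fold towards P1 and none towards P7, beside 2.71% and 3.49% of all genes. The median log2 ratio was 0.75. The same list had 4 of 14 past 2-fold towards P1 in smooth muscle cells and 8 of 15 in other cells. The shares of all genes there were 4.5% and 8.93%, and the list had medians of 0.69 and 1.06. Zbtb16, a zinc finger factor induced by glucocorticoids, had 28 UMIs at P1 and 1 at P7 (log2 ratio 5.34, 3.30 to 11.25). Hif3a, a hypoxia-inducible factor subunit, had 21 and 8 UMIs, with a ratio of 2.43 (1.25 to 3.87). Gpx3, a secreted glutathione peroxidase, had 196 and 76.1 CPM in pericytes but the opposite order in smooth muscle cells, with 61.9 and 88.8 CPM. Mt1 stood at 512 and 355 CPM, above other cells (76.0 and 36.5) at both ages.

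Some of the largest ratios towards P1 rested on 1 cell. Ccl2, a chemokine that attracts monocytes, had 451 UMIs at P1 and 73 at P7 (log2 ratio 3.71), but 373 of the 451 came from a single pericyte with 25285 UMIs. The same cell held 154 of the 192 P1 UMIs of the adhesion molecule Vcam1, 41 of the 166 of Cxcl1, 32 of the 34 of Cxcl2 and 19 of the 29 of Icam1. It also held 262 UMIs of Dcn and 98 of Col1a1 beside 19 of Kcnj8 and 12 of Colec11. Without the top cell of each library the ratio of Ccl2 was 2.27 and that of Vcam1 0.49. Leaving out pericytes with 2 or more of 5 fibroblast genes turned both, to -1.92 for Ccl2 and -1.32 for Vcam1, whereas the ratio of Cxcl1, which was detected in 35 of 129 and 29 of 314 cells, went from 2.502 to 1.03. Gm12840, a gene model that was also among the 12 largest ratios towards P1, had 64 and 15 UMIs. Of the same 12, 47 of the 62 P1 UMIs of Ctla2a, beside 54 of the macrophage gene Pf4, and 25 of the 54 of Limch1 came from 1 cell each.

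**Figure D5:**
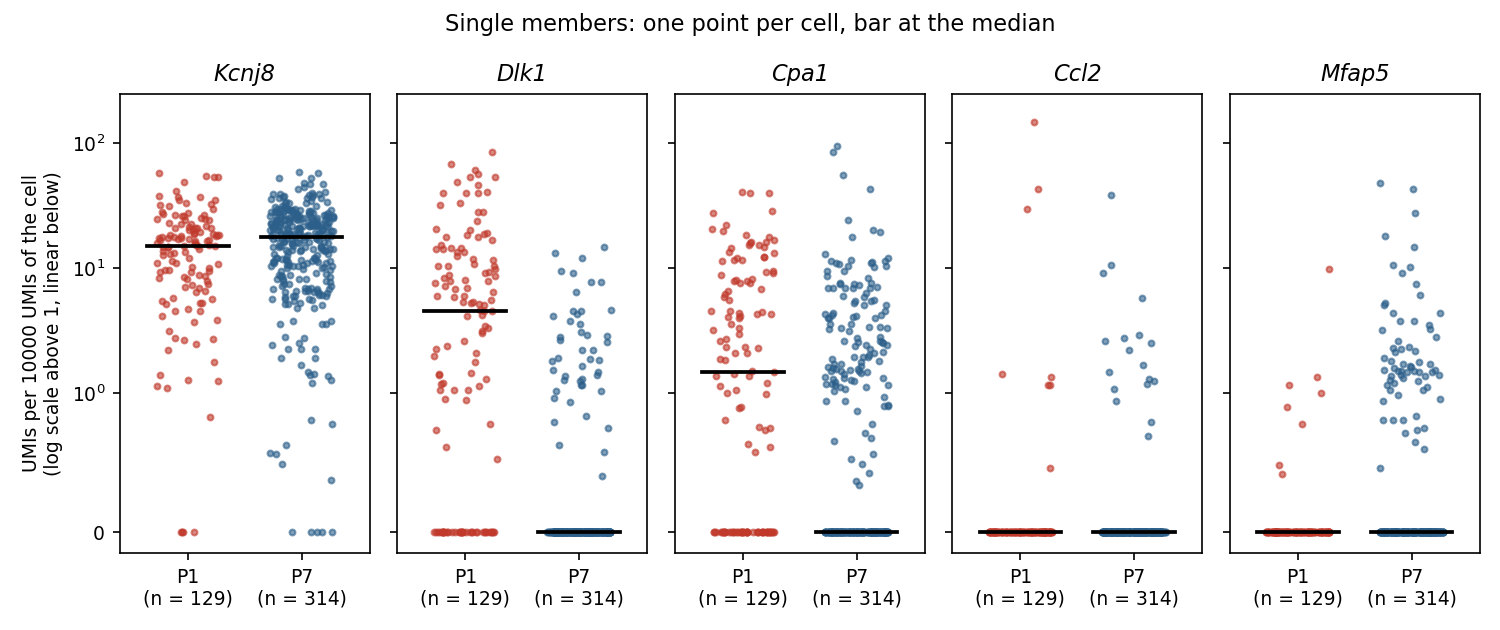
UMIs per 10000 UMIs of the cell in each of 129 P1 and 314 P7 pericytes, on an axis that is linear below 1 and logarithmic above, with the median as a black bar. Kcnj8, a gene of the rule that chose the cells, is spread over nearly all of them at both ages, and Dlk1 over most P1 cells. Ccl2, in contrast, is above 0 in 8 P1 and 18 P7 cells, with the highest point the P1 cell with 373 UMIs. Mfap5 is carried by few cells of the P7 library.

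Fibroblast genes were higher at P7, and a few cells held many of their UMIs. Of 10 fibroblast genes, 6 were 2-fold or more higher at P7 and none at P1, beside 3.49% and 2.71% of all genes. Their median log2 ratio of -1.23 was close to the -1.05 of all other cells. The summed level was 2087 CPM at P1 and 3568 at P7 against 8898 and 16881 CPM in other cells. Mfap5, a microfibril protein, had 33 UMIs at P1 and 535 at P7, of which 127 and 117 came from 2 cells that also held 381 and 394 UMIs of Dcn. Pi16 was detected in 1 and 14 pericytes, and Cthrc1, Medag and Col8a1, which were also among the 12 largest ratios towards P7, had 5, 2 and 1 UMIs at P1 and 122, 52 and 51 at P7. Clec3b, which encodes tetranectin, had 15 and 188 UMIs, 48 of them in 1 P7 cell. A UMI in 2 or more of 5 fibroblast genes was found in 31.8% of P1 and 42.7% of P7 pericytes, compared with 11.1% and 28.1% of lymphocytes, which should lack them. Thinned, the shares were 10.9% and 13.3% in pericytes and 7.41% and 10.9% in lymphocytes. Dcn, one of these 5 genes, had a log2 ratio of -1.11 over all members, but it was past 2-fold in only 12 of 20 alternatives, with -0.46 in members with at least 4 pericyte genes and -2.48 in those with no smooth muscle gene. Mfap5, which is not among the 5, had a ratio of -2.91 over all members and -2.37 without those with 2 or more of the 5. Its ratio was -1.92 in members with at least 4 pericyte genes and -4.50 without the top cell of each library. At P1 that cell held 25 of the 33 UMIs. The part of fibroblast transcripts in other differences between the ages was not tested.

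Basement membrane genes are known to be laid down by pericytes and endothelium together. Of 19 measured, 1 was 2-fold or more higher at P1 and 4 at P7, beside 2.71% and 3.49% of all genes, with a median of -0.13. The collagen IV chains Col4a1 and Col4a2 stood at 2600 and 1577 CPM at P1 and at 2211 and 1339 at P7, above smooth muscle cells (1244 and 856 CPM at P1). Sparc, a collagen-binding matricellular protein, was at 6953 and 9187 CPM. Col15a1, a collagen of the outer basement membrane, had 65.0 and 154 CPM, with a log2 ratio of -1.23 (-1.60 to -0.90), whereas smooth muscle cells had 81.1 and 54.8 CPM. Interstitial matrix genes had a median of -0.14, with 2 of 39 past 2-fold towards P1 and 6 towards P7, beside the same 2.71% and 3.49%. These counts depended on the members taken, with 6 and 2 in members with at least 4 pericyte genes, 2 and 3 without members with 2 or more fibroblast genes, 2 and 2 without those with 2 or more mitotic genes, and 1 and 13 in members with no smooth muscle gene. Col3a1, the chain of fibrillar collagen III, stood at 1130 and 2337 CPM.

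Of the secreted signals that were higher at P7, Cxcl12, the ligand of CXCR4, was chosen after its values were seen because it was spread over many cells. Its level was 46.0 CPM at P1 (34.9 to 59.5) against 124 at P7 (111 to 138), or -1.42 (-1.86 to -1.03) as a log2 ratio. It was detected in 24 of 129 and 138 of 314 pericytes, and its ratio was -2.14 without the top cell of each library. Smooth muscle cells had 285 and 226 CPM, and all other cells 186 and 210, so the ratio there was 0.33 and -0.18. Ccl11, which attracts eosinophils, had 1 and 38 UMIs (log2 ratio -3.59, -9.50 to -1.59). Over the 23 measured chemokine and cytokine genes, beside 2.71% and 3.49% of all genes, 5 were past 2-fold towards P1 and 4 towards P7. These counts became 2 and 4 without members with 2 or more fibroblast genes, without the 6% highest doublet scores, and in members with no smooth muscle gene, and 3 and 0 in members thinned to 2000 UMIs. With a minimum of 50 UMIs a gene they were 3 and 3, and with a minimum of 1 UMI 9 and 8.

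Of 32 measured ligands and receptors of recruitment, 2 were past 2-fold towards each age, beside 2.71% and 3.49% of all genes, and their median log2 ratio was -0.07. All 4 had few UMIs. Angpt1, the ligand of the endothelial receptor Tie2, had 15 UMIs at P1 and 13 at P7 (log2 ratio 1.29, 0.12 to 2.49) and was past 2-fold in 18 of 20 alternatives. Slit2, a guidance ligand, had 23 and 24 UMIs (1.03, 0.14 to 1.91) and was past it in 14. Towards P7, Vegfc, a lymphatic growth factor, had 3 and 22 UMIs (-1.60, -4.17 to -0.05), and Ntn1, which encodes netrin 1, had 3 and 21 (-1.53, -4.11 to 0.03). The ratios of Slit2, Vegfc and Ntn1 changed sign in members thinned to 2000 UMIs, and that of Ntn1 in 3 alternatives. Pdgfrb had a log2 ratio of -0.07 (-0.17 to 0.02). The integrin subunit Itga1, which binds collagens, had 687 and 940 CPM, and the connexin gene Gjc1 had 707 and 742. Among 14 measured Notch genes the median log2 ratio was 0.18 (0.01 in smooth muscle cells and -0.34 in all other cells), beside -0.02 over all genes. None was past 2-fold. Notch4, with 15 and 16 UMIs and a log2 ratio just under it (-0.12 to 2.11 as the counting interval), was past 2-fold towards P1 in 7 of 20 alternatives and at -0.29 with no limit on Pecam1 and Ptprc. Of 27 TGF-beta and BMP genes, 1 was past 2-fold towards P1 and 2 towards P7, beside 2.71% and 3.49% of all genes. The gene at P1 was Smad6, an inhibitory Smad, with 31 UMIs at P1 and 13 at P7. Tgfbi, 1 of the 2 towards P7, had 2 and 34 UMIs (log2 ratio -2.70, -6.10 to -1.04). Its ratio was 0.14 in members with at least 4 pericyte genes. Among transcription factors of mural cells 3 of 38 were past 2-fold towards P1 and none towards P7, beside 2.71% and 3.49% of all genes. The list had 6 of 40 past it towards P1 in smooth muscle cells and 6 of 45 in other cells, beside 4.5% and 8.93% of all genes. The 3 in pericytes were Gata6, Foxf1 and Meox1, with 50.8 and 21.6 CPM, 25.4 and 10.8 CPM, and 18.2 and 7.46 CPM respectively. The ratio of Meox1 was 1.29 and became -0.19 with no limit on Pecam1 and Ptprc. That of Foxf1, which is also on the list of lung mesenchyme described with the other cell types, was 1.23 and became 0.15 in members with at least 4 pericyte genes.

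Genes of the cell cycle gave different answers by level and by cell. Of 48 measured, 7 were 2-fold or more higher at P7 and none at P1, beside 3.49% and 2.71% of all genes. The list had a median of -0.35, and Cenpf, a kinetochore protein, had 40.4 CPM at P1 and 145 at P7. Smooth muscle cells had 16 of 48 past 2-fold towards P7 and other cells none, beside 3.07% and 4.11% of all genes there. The share of pericytes with 2 or more of 10 mitotic genes, a list added after the values were seen, was 19.4% at both ages (25 of 129 and 61 of 314), and after thinning 10.1% (5.32 to 17.0) and 11.0% (7.77 to 15.1). The cells in that share held a median of 6 mitotic UMIs at P1 and 16 at P7, and the summed level was 485 CPM (447 to 525) and 980 CPM (943 to 1019). The counting intervals of the shares thus overlapped between the ages, and those of the summed level did not. The top cell held 135 of the 611 mitotic UMIs at P1 and 327 of the 2629 at P7, and the counting intervals do not cover such uneven sharing among cells. The count of 7 genes was 0 with at least 2 pericyte genes and in members with no smooth muscle gene, and 30 without the 6% highest doublet scores.

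The 12 measured MHC class I and antigen processing genes had a median log2 ratio of -0.37, towards P7, beside -0.02 over all genes. In smooth muscle cells and all other cells the list had medians of -0.38 and -0.15. Of the 12, 2 were past 2-fold towards P7 in pericytes (Psmb8 and H2-T22), beside 3.49% of all genes. H2-D1 went the other way, at 299.8 and 234 CPM. Glycolysis genes had a median of -0.22 with 1 of 18 past 2-fold, and fatty acid oxidation genes a median of 0.09 with none of 21. The share of all genes past 2-fold in either direction was 6.19%. Immediate early and stress genes, which respond to dissociation, had 5 of 45 past 2-fold towards P1 (2 to 8 over the alternatives) and 2 towards P7 (0 to 3). The shares of all genes were 2.71% and 3.49%. The list had a median of 0.30, and the part of the digestion times of 20 and 45 min was not tested.

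Markers of other cell types remained in pericytes at low levels. Endothelial genes summed to 1366 CPM at P1 and 1162 at P7, against 10731 and 8708 in all other cells, and Egfl7 had 69.8 and 66.8 CPM in pericytes but 12.02 and 19.36 in smooth muscle cells. A UMI in 2 or more of 5 endothelial genes was present in 24 of 129 P1 and 44 of 314 P7 pericytes (18.6% and 14.01%). The shares were 5.34% and 6.59% in smooth muscle cells and 3.70% and 5.88% in lymphocytes. Thinned, they were 2.52% and 1.30% in pericytes, 0% and 0.88% in smooth muscle cells, and 3.70% (1 of 27 cells) and 1.45% in lymphocytes. Cardiomyocyte genes summed to 216 and 109 CPM and were higher at P1 in all 9 measured, with Tnnt2 at 53.1 and 14.9 CPM; in other cells the sums were 1137 and 424. Haemoglobin and other erythroid genes summed to 22.2 and 51.8 CPM, and myeloid and lymphoid genes to 24.6 and 25.7, with Cd74, Cd3e, Cd79a and Ms4a1 at 0 at P1 and Cd3e at 0 at P7. All 7 epicardial genes were at 0 at P1 and 6 of 7 at P7. Glial genes summed to 34.1 and 13.1 CPM in pericytes and to 15.5 and 12.6 CPM in other cells. S100b was the most abundant of them in pericytes (16.7 and 8.95 CPM), and Sox10 was at 0 there at both ages. Sftpc, a surfactant protein of the lung alveolus, had 20 UMIs in P1 pericytes and 0 at P7, and the lung epithelial list summed to 245 CPM in other P1 cells and 1.51 in other P7 cells. Genes of lung mesenchyme summed to 50.8 and 14.2 CPM in pericytes and to 41.8 and 9.83 CPM in other cells. Foxf1, the most abundant of them, was at 10.8 CPM in P7 pericytes and 0.62 in other P7 cells. A UMI of at least 1 lung mesenchyme gene was found in 17.1% of P1 and 9.55% of P7 pericytes, and in 19.8% and 6.59% of smooth muscle cells. Thinned, the shares were 5.88% and 2.92% in pericytes. None of 27 P1 and 138 P7 thinned lymphocytes held one (up to 11.1% and 2.17% allowed). Alternatives left out members with endothelial genes and members with a lung mesenchyme gene, and none was defined by the other transcripts named here. The part of these transcripts in the comparisons was not otherwise tested.

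The 12 largest ratios towards P7 also held genes that followed the library as a whole. Eif2s3y, Ddx3y and Uty are Y-linked. Gm10320, on chromosome 13, had 0 UMIs in pericytes at P1 and 238 at P7, in 146 of 314 cells, with 0.64 and 111 CPM in all other cells, and Gm15261, on chromosome X, had 0 and 51. Counts of 0 allow up to 2.38 CPM at P1, and Gm10320 stood at 88.8 CPM at P7.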

How the data were processed

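Single cells of P1 and P7 hearts were captured with the 10x Genomics 3′ system, 1 library per age from 3 pooled hearts. The authors ran Cell Ranger 3.1.0 with the mm10 (GRCm38) reference. They deposited UMI counts for 31053 genes in 7836 P1 and 9077 P7 barcodes, before normalisation and before the limits on genes and mitochondrial UMIs used here. Cells with 200 to 8000 genes and at most 20% mitochondrial UMIs were kept, which left 4991 of 7836 barcodes at P1 (63585504 UMIs in all) and 8511 of 9077 at P7 (98346195 UMIs). Doublets were not removed; an alternative left out the top 6% of kept cells by a score against simulated doublets.

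UMIs were summed over pericytes, smooth muscle cells (3 or more of the 5 smooth muscle genes and more of these than of the pericyte genes), endothelial cells (Pecam1, no Ptprc, and 3 or more of Cdh5, Kdr, Emcn, Egfl7 and Cldn5), lymphocytes (Ptprc, no Pecam1, and 2 or more of Cd3d, Cd3e, Cd3g, Cd79a, Cd79b and Ms4a1) and all other kept cells, meaning every kept cell that was not a pericyte. Levels were CPM with exact Poisson intervals, and log2 ratios had 0.5 counts added to each sum and exact conditional binomial intervals, both at 95%. These intervals cover counting error only, and cells of 1 library are not replicates. A gene was measured with 20 or more UMIs over both libraries in pericytes. Detection was also compared in cells thinned to 2000 UMIs, with shallower cells left out (10 P1 and 6 P7 pericytes).

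The 10 genes of the rule, the 34 gene lists and the alternatives were chosen with earlier results of these data known. Named genes were the rule and label genes, the 4 largest ratios of each list and list genes of 100 CPM or more where a level is described, the 12 largest ratios towards each age with 50 or more UMIs in a library, the 15 leading genes over other cells, 10 in each direction against smooth muscle cells, and sex and background genes. A few genes that met these rules are not reported here. Where 35 symbols were shared by several gene IDs, the ID with most UMIs was used. Gene coordinates came from a GENCODE M21 annotation of GRCm38. The ratio step was tested on simulated data. Analyses used Python 3.11.15, numpy 2.4.6, scipy 1.17.1, pandas 2.3.3, scikit-learn 1.9.0 and matplotlib 3.10.9.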

Additional observations from a re-analysis of the deposited data

Results flagged for a closer look

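Barcodes with more than 20% mitochondrial UMIs were left out of all comparisons, and some of them also met the pericyte rule. There were 6 such barcodes of 592 at P1 (1.01%, exact interval 0.373 to 2.19) and 6 of 405 at P7 (1.48%, 0.546 to 3.20). They were singled out because their counts lie above the limit that a count of 0 allows in cells outside the reported comparisons, and with the mitochondrial limit removed the shares of pericytes stayed close to those given above.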

How the results depend on the processing

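The P1 against P7 values were recomputed under 20 alternatives, 3 of them chosen after seeing the data (without members with 2 or more of 10 mitotic genes, without members with 2 or more of 5 endothelial genes, and without the member with most UMIs of each gene). The pericyte share was 4.11% at P1 and 4.83% at P7 with at least 2 pericyte genes, 1.96% at P1 with at least 4, and 3.17% and 4.48% with no limit on Pecam1 and Ptprc, so it stayed lower at P1 throughout. Genes past 2-fold numbered 443 towards P1 by the mean of CPM per cell, 124 and 145 towards P1 and P7 at a minimum of 50 UMIs, 2052 and 1211 at a minimum of 1 UMI, and 531 towards P7 without the top member of each gene. Of the values for single genes and lists, 3200 stayed within the counting error or within 1.5 times the reported count and 435 moved further. Another 22, all of them ratios past 2-fold over all pericytes, changed sign, and the cause was not tested. Smaller ratios that changed sign, such as those of Lyz2 (0.63, lowest -3.29) and Notch4 (lowest -0.29), are not among the 22. The reversed log2 ratios of P1 over P7 were 0.14 for Aurka with at least 2 pericyte genes, and 0.38 for Ntn1 and 0.14 for Tgfbi with at least 4. With no limit on Pecam1 and Ptprc they were -0.069 for Col18a1, -0.19 for Meox1 and -0.061 for Tyrobp. In members with no smooth muscle gene they were 0.00094 for Nusap1, 0.26 for Cldn5 and -2.55 for Tyrobp. Without members with 2 or more fibroblast genes they were 0.88 for Ntn1, 0.88 for Smoc2, -0.70 for Cxcl2, -1.92 for Ccl2, -0.99 for Icam1, -0.45 for Ier3 and -1.32 for Vcam1, and without mitotic members, which were chosen in part by Nusap1 itself, 0.68 for Nusap1. In members thinned to 2000 UMIs they were 0.64 for Vegfc, 1.37 for Ntn1, -0.50 for Slit2, 0.48 for Col4a4 and -0.21 for Col12a1. Dlk1, H19 and Slc4a8 were past 2-fold in all 20 alternatives, Cpa1 in 19 and Cxcl12 in 18. No paired analysis was possible because each age had 1 library. At this depth, a gene with 20 UMIs over both libraries carries a wide counting interval, and differences within it were not detectable.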
